A study of Mus musculus with 3 samples.

Results

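Expression of 10 genes of the Hippo pathway was examined in mouse blastocysts from young and aging females. The genes were Nf2, Stk3, Sav1, Lats1, Lats2, Amot, Amotl2, Yap1, Wwtr1 and Tead4, which together set the choice between trophectoderm and inner cell mass. They were taken by name as components of the pathway, and every probe whose RefSeq transcript belongs to one of them was used. These were 17 probes for 10 genes, of 33759 probes for 23458 genes with a name on the array. The blastocysts came from ICR females that were 3 to 6 weeks old (young) or 43 to 53 weeks old (aging). All females were superovulated and mated, zygotes were flushed from the oviduct 18 h after hCG, and embryos of all groups grew for 96 h in 30 µl drops of KSOM, a culture medium for early embryos. Suppressed aging embryos came from females of 43 to 53 weeks too, and their drops also held a neutralizing antibody against CXCL5 (10 µg/ml) and a selective antagonist of CXCR2 (10 nM). CXCL5 is a secreted chemokine and CXCR2 its receptor. The antibody and the antagonist were always given together, so their parts cannot be told apart. RNA of 1 pool of 30 expanded blastocysts per group was hybridised to 1 single-colour array, so no difference below has a replicate and no P-value was computed.

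In the Hippo pathway, a kinase cascade keeps the coactivators YAP1 and WWTR1 (also called TAZ) out of the nucleus. Cells at the inside of the morula have active angiomotin and LATS kinases, YAP1 stays in the cytoplasm, and the cells become inner cell mass. In polarised outer cells the angiomotins are held at the apical membrane, YAP1 enters the nucleus, and with TEAD4 it turns on Cdx2 and Gata3, which make trophectoderm. The pathway acts through phosphorylation and the place of its proteins in the cell, and an array of transcripts reads neither.

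Levels are given as the log2 intensity of a probe minus the 75th percentile of its array, so a level of 0 equals that percentile. The scanner software called between 56.4% and 58.7% of 56591 probes well above background. The lowest such level of an array, used as its detection limit, was -4.20, -4.32 and -3.93 on the arrays of young, aging and suppressed aging blastocysts. The ± beside a level or a difference is the error of the spot that the scanner software estimated, on the log2 scale. It does not hold the spread between pools of embryos. The 3 arrays shared 1 slide and 1 scan. All 8 trophectoderm, 6 inner cell mass and 5 primitive endoderm markers were well above background on the 3 arrays, as the label blastocyst requires. The summed intensity of the trophectoderm markers, in units of the 75th percentile, was 504, 380 and 452 in that order, and that of the inner cell mass markers was 1041, 1257 and 1168. The largest part of these sums came from Krt18 (levels of 8.05, 7.52 and 7.73) and from Nanog (9.88, 10.14 and 10.03). Median levels of the markers were 4.93, 4.20 and 4.60 for trophectoderm and 3.58, 4.23 and 3.88 for inner cell mass. In these pools, fewer cells of a type and less RNA per cell cannot be told apart. Of 7 cumulus and granulosa markers, 3 were above background on each array, with Foxl2 at a level of 8.66, 8.54 and 8.77 and Fshr, Has2, Inhba and Ptx3 not above background on any. Of 5 maternal oocyte transcripts 2, 3 and 2 were above background, and of the 3 blood markers with a probe 2, 2 and 1. The 3 markers of oviduct epithelium were not above background, except Ovgp1 on the suppressed aging array. The part of any of these cell types in the differences below was not tested.

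All 10 genes were expressed in the 3 pools, as far as their brightest probe shows. That probe was well above background on every array for each gene, and 14 of the 17 probes were. By their brightest probe, 3 genes had their highest level in young, 4 in aging and 3 in suppressed aging blastocysts. The lowest level lay in young for 3 genes, in aging for 4 and in suppressed aging for 3. No array therefore held the pathway as a whole high or low. The genes were located on chromosomes 3 (Wwtr1), 6 (Tead4), 9 (Yap1 and Amotl2), 10 (Lats1), 11 (Nf2), 12 (Sav1), 14 (Lats2), 15 (Stk3) and X (Amot) of the mouse assembly GRCm38.p6.

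**Figure D1:**
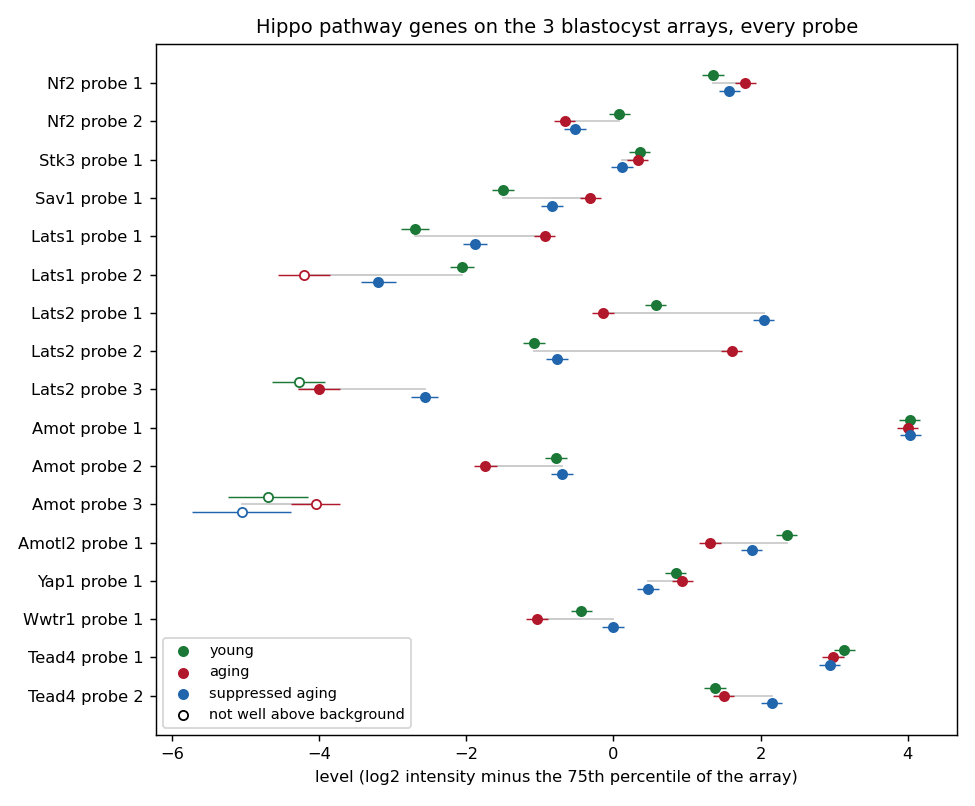
Level of each of the 17 probes (log2 intensity minus the 75th percentile of the array, horizontal axis) on each of the 3 arrays, with bars for the error of the spot and open symbols where the probe was not well above background. The points of the brightest Amot probe lie on each other near 4, while the second Lats2 probe spans -1.09 to 1.61.

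At the head of the cascade, Nf2 encodes Merlin, a membrane protein that recruits LATS kinases and is needed for the inner cells to restrain YAP1. The brighter Nf2 probe, of transcript NM_001252250, read 1.35 in young, 1.79 in aging and 1.57 in suppressed aging blastocysts. The dimmer one, of NM_010898, read 0.08, -0.66 and -0.52. The brighter probe was thus lowest and the dimmer probe highest in young blastocysts. Aging exceeded young by 0.44 ± 0.20 at the first probe and was below young by a log2 difference of -0.74 ± 0.21 at the second. No Nf2 difference reached 2-fold.

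Stk3 encodes MST2, the kinase that phosphorylates LATS1 and LATS2, and Sav1 encodes its scaffold Salvador. The single Stk3 probe read 0.36 in young, 0.33 in aging and 0.12 in suppressed aging blastocysts, a range of 0.24 with a spot error of 0.21 on the widest difference. The widest difference of Stk3 was thus little more than the spot error. Sav1 read -1.50 in young, -0.31 in aging and -0.83 in suppressed aging blastocysts. Aging was highest and young lowest, with intensities of 124 and 51.2 before scaling. The level of Sav1 was 2.28-fold higher in aging than in young blastocysts (log2 difference 1.19 ± 0.21). Suppressed aging lay between them, -0.52 ± 0.21 from aging and 0.67 ± 0.21 from young. After normexp background correction the difference between aging and young was 0.55, below 2-fold.

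Lats1 encodes a kinase that phosphorylates YAP1 and WWTR1, and its 2 probes, both assigned to transcript NM_010690, read it in opposite directions. The first probe read -2.70 in young, -0.94 in aging and -1.88 in suppressed aging blastocysts. The second read -2.05 in young blastocysts, -3.2 after suppression, and was not well above background on the aging array, with a reading of -4.21. Aging held the highest level by the first probe and the lowest by the second. The first probe gave aging over young as 3.39-fold higher (1.76 ± 0.24), whereas the second gave it as at least 4.45-fold lower, a log2 difference of -2.15 or lower. Suppressed aging was -0.95 ± 0.22 from aging by the first probe and at least 1.01 above it by the second. Against young, suppressed aging was 0.82 ± 0.25 higher by the first probe and -1.14 ± 0.29 by the second. All of these intensities were low, between 8.37 and 80.7, and with normexp the difference of aging from young shrank to 0.77 at the first probe and -0.57 at the second, with no change of sign. No direction for Lats1 can be given from these arrays.

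Lats2, the paralog of Lats1 and itself a target of YAP in many cells, varied more over the arrays than any other gene of the 10. Its brightest probe, of transcript NM_015771, read 0.57 in young, -0.14 in aging and 2.04 in suppressed aging blastocysts. The second probe, of NM_153382, read -1.09, 1.61 and -0.77. The dimmest, again of NM_015771, was not well above background in young blastocysts, where it read -4.28, and read -4.0 in aging and -2.57 in suppressed aging blastocysts. Both NM_015771 probes were thus highest after suppression, and the NM_153382 probe was highest in untreated aging blastocysts. The NM_153382 probe was 6.46-fold higher in aging than in young (2.69 ± 0.21) and 5.19-fold lower in suppressed aging than in aging (-2.38 ± 0.21). At that probe suppressed aging and young differed by 0.32 ± 0.21. The brightest probe differed in the other direction, by -0.71 ± 0.21 for aging against young and by 2.18 ± 0.20, or 4.54-fold, for suppressed aging against aging. The dimmest probe was also higher after suppression than in aging, by 1.43 ± 0.34. Against young, suppressed aging was 1.47 ± 0.20 higher at the brightest probe and at least 1.63 at the dimmest. With normexp the 2 called differences of the dimmest probe were below 2-fold, at 0.55 from aging and 0.56 from young. Both brighter probes kept the sign and the 2-fold size of their called differences under each of 8 other ways of processing, within 1.91 to 2.71 for the NM_153382 probe in aging against young and within 1.75 to 2.19 for the brightest probe in suppressed aging against aging.

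With age the Lats2 probes of NM_015771 read -0.71 at the brightest and at least 0.20 at the dimmest. The difference of the dimmest as measured was 0.28 ± 0.46, within its spot error. Whether these probes of 1 transcript share a direction with age therefore cannot be told. RefSeq annotates more than 1 start for Lats2 transcripts, and the sequence before each is shown. Whether transcription begins at either start in these blastocysts was not tested. Each is 250 bases before a start in GRCm38.p6, on the minus strand, written 5′ to 3′. The table does not pair starts with the transcripts that the probes target.
Lats2 start at the lower coordinate, chr14:57734419-57734668: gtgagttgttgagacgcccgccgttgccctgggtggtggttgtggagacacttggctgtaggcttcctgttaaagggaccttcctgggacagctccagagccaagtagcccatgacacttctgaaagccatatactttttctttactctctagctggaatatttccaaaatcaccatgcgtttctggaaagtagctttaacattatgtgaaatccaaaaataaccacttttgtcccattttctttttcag
Lats2 start at the higher coordinate, chr14:57746124-57746373: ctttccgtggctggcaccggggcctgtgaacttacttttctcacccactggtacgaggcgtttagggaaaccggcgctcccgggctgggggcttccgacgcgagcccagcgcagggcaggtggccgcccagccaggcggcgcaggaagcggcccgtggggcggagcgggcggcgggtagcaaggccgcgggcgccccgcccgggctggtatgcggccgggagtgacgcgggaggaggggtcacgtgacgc
The first is 44.8% G and C with 4 CpG dinucleotides, and the second is 74% with 31. The median window over all genes was 52.4% G and C with 6 CpG. The windows of Nf2, the other gene with separate annotated starts, differed in the same respect, with 33.6% and 59.2% G and C.

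The angiomotins bridge junctions, actin and LATS, and hold YAP1 in the cytoplasm of inner cells. The brightest Amot probe, of transcript NM_153319, was nearly constant, with 4.03 in young, 4.0 in aging and 4.04 in suppressed aging blastocysts. The second probe, of NM_001290274, read -0.78, -1.74 and -0.70. The third, of the same transcript, was not well above background on any array, so it gives no difference. Amot levels thus lay within 0.036 of each other at the bright probe, against a spot error of 0.20, while the second probe was lowest in aging. At that second probe suppressed aging exceeded aging 2.06-fold (1.04 ± 0.22), and aging was below young by a log2 difference of -0.96 ± 0.22. With normexp the former was 0.57.

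Amotl2, a member of the same family and a target of YAP in several cell types, had a single probe. It read 2.35 in young, 1.31 in aging and 1.88 in suppressed aging blastocysts. Intensities before scaling were 741, 384 and 450. Young was highest and aging lowest, and aging was 2.06-fold lower than young (-1.04 ± 0.20). Suppressed aging lay between them, 0.56 ± 0.20 above aging and -0.48 ± 0.20 from young. The difference between aging and young was close to the limit and ranged from -1.11 to -0.91 over the alternatives. The promoter is shown because Amotl2 is both a Hippo component and a YAP target, with the letters of a TEAD binding motif, CATTCC, in capitals.
Amotl2, plus strand, chr9:102717554-102717803: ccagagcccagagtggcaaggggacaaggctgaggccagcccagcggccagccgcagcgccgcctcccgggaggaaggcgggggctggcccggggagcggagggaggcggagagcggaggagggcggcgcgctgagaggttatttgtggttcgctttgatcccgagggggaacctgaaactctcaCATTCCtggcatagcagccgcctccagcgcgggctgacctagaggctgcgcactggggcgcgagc
The motif starts at position -65, where -1 is the base before the annotated start.

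Yap1 and Wwtr1 encode the coactivators that the cascade restrains. The single Yap1 probe read 0.85 in young, 0.94 in aging and 0.47 in suppressed aging blastocysts. Young and aging differed by 0.09 ± 0.20, less than the spot error, and suppressed aging was lowest, -0.47 ± 0.20 from aging. Yap1 did not reach 2-fold in any comparison. The Wwtr1 probe read -0.44 in young, -1.04 in aging and -0.0034 in suppressed aging blastocysts. Aging was lowest and suppressed aging highest, so the coactivator genes differed in which array was lowest. Wwtr1 was 2.05-fold higher in suppressed aging than in aging (1.03 ± 0.21), and aging was -0.60 ± 0.21 from young. With normexp the first of these was 0.76, below 2-fold. The Wwtr1 promoter is shown since its window holds the same motif, here on the other strand as GGAATG in capitals, at position -170. Windows of Sav1 and Yap1 hold the motif too, and neither gene was lowest on the aging array.
Wwtr1, minus strand, chr3:57575877-57576126: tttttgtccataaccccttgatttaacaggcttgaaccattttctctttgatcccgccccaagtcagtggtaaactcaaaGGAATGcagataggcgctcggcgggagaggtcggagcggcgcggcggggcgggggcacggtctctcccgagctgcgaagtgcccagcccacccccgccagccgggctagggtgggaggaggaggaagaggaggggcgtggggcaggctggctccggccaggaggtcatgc
A nearby start in the table has an overlapping window with the same motif.

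Tead4 encodes the DNA-binding partner of YAP1 that trophectoderm cannot form without. Its brighter probe read 3.14 in young, 2.99 in aging and 2.94 in suppressed aging blastocysts. The dimmer one, of the same transcript NM_011567, read 1.38, 1.5 and 2.15. The first probe put the 3 groups within 0.20, which is the size of the spot error, and the second put suppressed aging above the others. By the second probe suppressed aging exceeded aging by 0.65 ± 0.20 and young by 0.77 ± 0.20. For aging against young the probes read -0.16 ± 0.20 and 0.12 ± 0.20, so no difference of Tead4 with age was measurable at this precision.

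**Figure D2:**
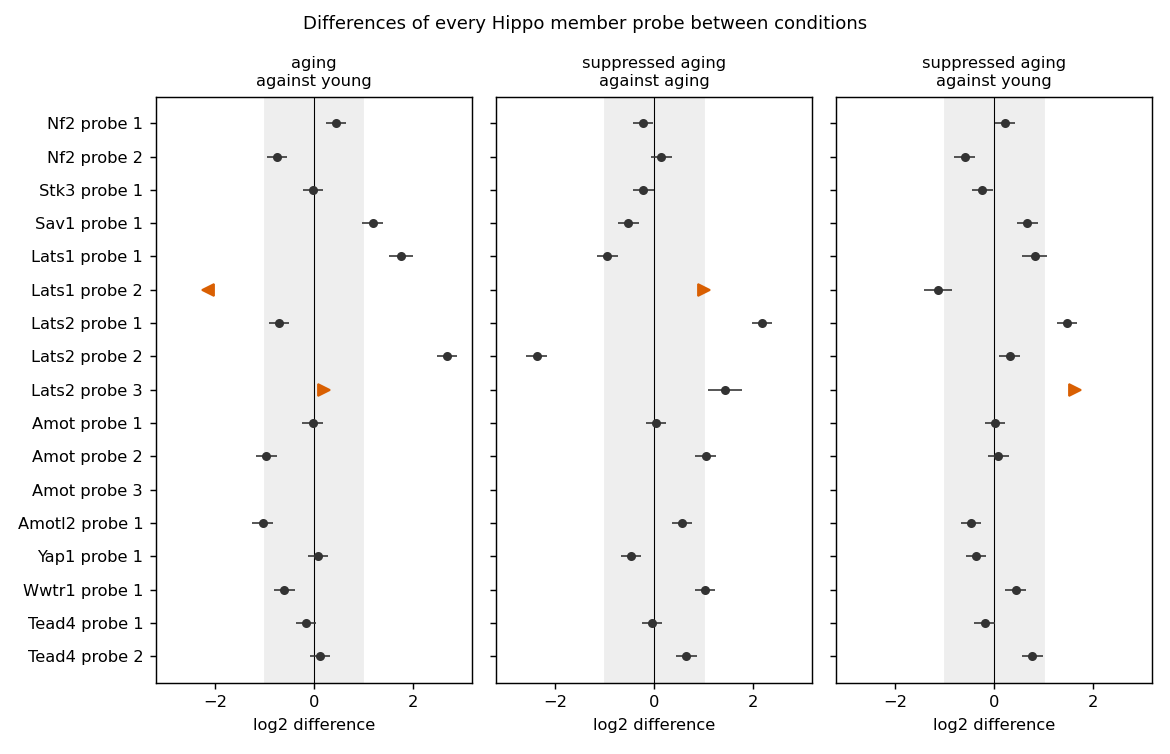
Log2 difference of each member probe (horizontal axis) in the 3 comparisons, with bars for the spot error, triangles for bounds where 1 array was not well above background, and grey within 2-fold. The second Lats2 probe reaches 2.69 in the left panel and -2.38 in the middle panel, while most probes stay in the grey band.

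Across the genes, the count past 2-fold was small, and it is read against the same count over all genes on the array. For aging against young, 3 of 10 genes passed 2-fold at their brightest probe, with Lats1 and Sav1 higher and Amotl2 lower, where 19% of 16164 genes did in either direction, 9.86% higher and 9.19% lower. For suppressed aging against aging 2 of 10 did, Lats2 and Wwtr1, both higher, where 17.3% of 15875 genes did, 8.77% higher and 8.5% lower. For suppressed aging against young 1 of 10 did, Lats2, which was higher, where 16.3% of 15931 genes did, 8.67% higher and 7.64% lower. With 10 genes, 1 gene more or less moves each count by 10%, and these counts do not set the genes apart from the array. The second probe read the opposite of these calls for Lats1 with age and for Lats2 with suppression. After normexp the first count was 0 and the second 1, and with the mean over a gene's probes they were 2 and 1. None passed 5-fold at its brightest probe, where 2.59%, 2.29% and 2.43% of all genes did in the 3 comparisons. In the same order, the 10 genes had a median log2 difference of -0.03, -0.13 and 0.11, against 0.03, -0.0034 and 0.03 over all genes. The median size of the difference, without its sign, was 0.52, 0.49 and 0.40 for the 10 genes and 0.44, 0.41 and 0.39 for all genes. Each array enters 2 of the 3 comparisons, so they are not independent of one another.

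Counted by probe, 16 of the 17 probes gave a difference in each comparison. Taking the comparisons in the same order, 5, 6 and 3 of these passed 2-fold, and 1, 1 and 0 passed 5-fold. Over all named probes compared, 20.3%, 18.5% and 17.1% passed 2-fold and 2.63%, 2.27% and 2.38% passed 5-fold. Probes higher in aging than in young were 7 and probes lower were 9, and after suppression 9 were higher and 7 lower than in aging. Of the 14 differences past 2-fold, 10 belonged to Lats1 and Lats2.

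A gene with several probes is measured several times on an array, and 5 of the 10 genes were. Their probes shared a direction in 1 of 5 genes for aging against young, which was Amot. Of the 5, Amot was again the 1 with a shared direction after suppression, and 2, Amot and Lats2, had one when suppressed aging was set against young. Over all genes with several probes the share was 50.7% of 5555, 48.8% of 5463 and 50% of 5480. These counts take the sign of a difference whatever its size. At the brightest Amot probe the differences were -0.03, 0.04 and 0.0073, each ± 0.20, so their signs lay within the spot error. The same held for both Tead4 probes with age, at -0.16 and 0.12. Probes past 2-fold in opposite directions occurred for Lats1 in aging against young and for Lats2 in suppressed aging against aging. No gene of the 10 with several probes was past 2-fold in 1 direction at all of them. Probe sequences were not used here, and whether the probes of a gene read different transcripts was not tested.

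**Figure D3:**
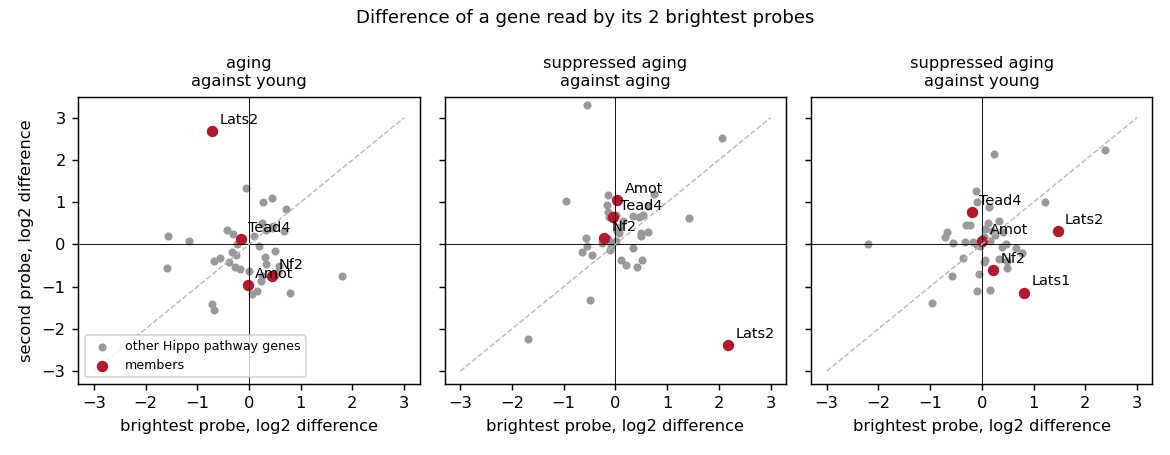
Log2 difference of a gene by its brightest probe (horizontal axis) and by its second probe (vertical axis) in the 3 comparisons, for genes with at least 2 measured probes, members in red, the other pathway genes in grey and the line of equal values dashed. Lats2 lies far from that line, at -0.71 and 2.69 in the left panel and at 2.18 and -2.38 in the middle panel.

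The TEAD motif was searched in the 250 bases before each start of the RefSeq table, as CATTCC on both strands. It lay in 12.6% of 32851 windows of all genes. Of the 10 genes, 8 had a window in the table, 11 windows in all, and 5 of these held the motif, namely those of Amotl2, Sav1 and Yap1 and both overlapping windows of Wwtr1. The windows of Lats1, Lats2, Nf2 and Amot did not hold these letters. In Sav1 the motif started at position -106 and in Yap1 at -141. The genes with the motif did not share a direction, since in aging blastocysts Amotl2 and Wwtr1 were lower than in young by a log2 difference of -1.04 and -0.60, Sav1 was higher by 1.19, and Yap1 differed by 0.09. For comparison the promoter of Ccn1, a standard YAP target gene, is shown with its motif in capitals, at position -103.
Ccn1, minus strand, chr3:145649986-145650235: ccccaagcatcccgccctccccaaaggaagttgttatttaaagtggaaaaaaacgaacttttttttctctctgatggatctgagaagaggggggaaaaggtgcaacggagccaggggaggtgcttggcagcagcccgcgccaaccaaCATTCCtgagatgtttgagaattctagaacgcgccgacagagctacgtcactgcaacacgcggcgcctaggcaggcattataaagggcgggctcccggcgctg
Ccn1 was lower in aging than in young by a log2 difference of -1.23 ± 0.20, with levels of 1.5 in young, 0.27 in aging and 0.54 in suppressed aging blastocysts. Windows of the YAP target genes Ajuba, Crim1, Ptpn14 and Axl held the motif too, and these genes did not share a direction. With age Ajuba and Crim1 differed by 1.13 and 0.19, Ptpn14 by -0.68 at its brightest probe and Axl by -0.79 or lower. A match of letters is a description of the window and does not show that a factor binds there.

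In the embryo the pathway acts on lineage genes, whose levels are given here. Whether the 10 genes have a part in the differences of these lineage genes was not tested. Of 6 trophectoderm genes listed as dependent on YAP and TEAD4, 5 were lower in aging than in young at their brightest probe. All 6 were higher in suppressed aging than in aging. Their medians were -0.28 and 0.25, against 0.03 and -0.0034 over all genes. Of all genes, 51.9% were higher in aging than in young and 49.7% higher in suppressed aging than in aging. Gata3, Eomes and Krt8 with age, and Eomes and Krt8 with suppression, differed by less than the spot error of 0.20. Elf5, a trophectoderm marker outside these 6, went the other way, with 0.91 ± 0.21 and -0.58 ± 0.21, and the marker Id2 read -0.56 and 0.74. The differences were small, and Tfap2c alone of the 6 passed 2-fold, with levels of 5.74 in young, 4.58 in aging and 5.07 in suppressed aging blastocysts at its brighter probe, while its other probe of the same transcript differed by 0.08 with age. Cdx2 differed by -0.37 ± 0.20 for aging against young and by 0.29 ± 0.20 after suppression, and Gata3 by -0.19 ± 0.20 and 0.50 ± 0.20. For Eomes these values were -0.17 and 0.14 (-0.59 and 0.55 at its second probe), for Krt18 -0.53 and 0.21, and for Krt8 0.01 and 0.09. Of 4 inner cell mass genes listed as downstream of YAP and TEAD4, 4 were higher in aging than in young and 4 were lower in suppressed aging than in aging, 2 of them by less than the spot error (Pou5f1 at -0.02 ± 0.20 and Nanog at -0.11 ± 0.20). Of the other inner cell mass markers, Klf2 and Esrrb were 1.31 and 1.11 higher with age, and Zfp42 did not follow them, with -0.00065 with age and 0.23 with suppression. Sox2, which YAP and TEAD4 repress in outer cells, read 1.0 in young, 2.37 in aging and 2.11 in suppressed aging blastocysts, so that aging exceeded young by 1.37 ± 0.20. Nanog, Pou5f1 and Klf4 exceeded young by 0.26, 0.34 and 0.36 in aging, and Klf4 differed by -0.80 ± 0.20 between suppressed aging and aging. The second, dimmer Nanog probe read 1.02 ± 0.20 with age and -0.13 ± 0.20 with suppression. Over the same arrays the brightest probes of the 10 genes had ranges from 0.036 (Amot) to 2.18 (Lats2), with 0.20 for Tead4 and 0.47 for Yap1. The second probes of Tead4 and Amot had ranges of 0.77 and 1.04. The comparisons of aging with young and of suppressed aging with aging share the aging array, and a high or low reading of that array enters both with opposite sign.

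**Figure D4:**
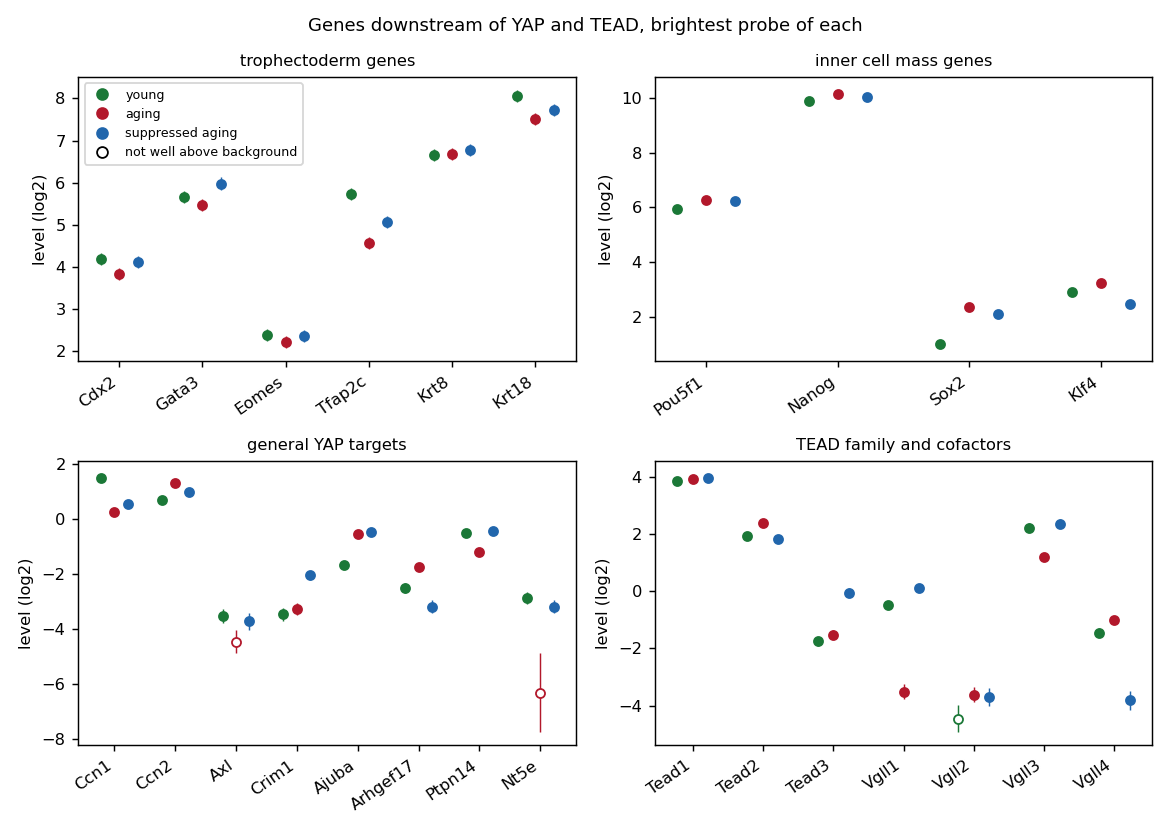
Level (log2 intensity minus the 75th percentile of the array, vertical axis) of the brightest probe of lineage genes, general YAP target genes and TEAD cofactors on the 3 arrays, with bars for the spot error and open symbols where the probe was not well above background. Of the 6 trophectoderm genes drawn, Krt8 is the 1 that is not lowest in aging, and Gata3 and Eomes differ there from young by less than the spot error. The 4 inner cell mass genes drawn are highest in aging, though Pou5f1 by only 0.02 over suppressed aging. Vgll1 is at -0.48 in young and -3.51 in aging.

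General YAP target genes were split with age and mostly higher after suppression. Ccn2 was higher in aging than in young by 0.63 ± 0.20, Ajuba by 1.13 ± 0.21, Arhgef17 by 0.75 ± 0.24 and Crim1 by 0.19 ± 0.32. Ptpn14 was lower by a log2 difference of -0.68 ± 0.21 at its brightest probe. Its other probes, of the same transcript, read -1.56 ± 0.23 and -2.19 ± 0.32 with age, and 1.19 and 0.22 with suppression. Nt5e and Axl, not well above background on the aging array, were lower by -1.46 and -0.79 or lower. Of the 8 compared, 6 were higher in suppressed aging than in aging, where 49.7% of all genes were. Their median was 0.44 against -0.0034 over all genes. Of the 8, 3 passed 2-fold (2 higher and 1 lower), where 17.3% of all genes did. Crim1 was 1.22 ± 0.27, Ptpn14 0.74 ± 0.21, Nt5e at least 1.14 and Axl at least 0.60 above aging, Ccn1 and Ajuba were 0.27 and 0.06 above it, and Arhgef17 differed by -1.44 ± 0.28 and Ccn2 by -0.32. Ankrd1 and Tgfb2 were not well above background on any array. With Ccn1, 4 of the 8 target genes compared were higher and 4 lower in aging than in young.

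Among the other TEAD genes and cofactors listed, 4 of 7 passed 2-fold with suppression (3 higher and 1 lower), where 17.3% of all genes did. With age 2 of 7 did, and between suppressed aging and young 2 of 7, where 19% and 16.3% of all genes did. Vgll1, a cofactor that binds TEAD in place of YAP, read -0.48 in young, -3.51 in aging and 0.12 in suppressed aging blastocysts at its 1 probe above background, log2 differences of -3.03 ± 0.29 with age and 3.63 ± 0.29 with suppression. Vgll3 differed by -1.04 and 1.18 in the same comparisons. Vgll4, which opposes YAP at TEAD, read -1.45 in young, -1.0 in aging and -3.82 after suppression. The last of these lay close to the detection limit of its array, -3.93. The reading of -3.51 for Vgll1 in aging stands beside a limit of -4.32. Tead3 was 1.48 ± 0.21 higher in suppressed aging than in aging.

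Beyond the 10 genes, 87 other genes of the pathway and its targets were listed, and each had a probe. With age, 13 of 84 compared passed 2-fold (4 higher and 9 lower in aging than in young). With suppression, 13 of 85 did (9 higher and 4 lower than in aging), and against young 10 of 85 (7 higher and 3 lower). Those shares, 15.5%, 15.3% and 11.8%, lie below the 19%, 17.3% and 16.3% of all genes. Among kinases upstream of or parallel to Stk3, Taok3 differed by 1.79 ± 0.21, Map4k1 by -1.36 ± 0.20 and Tnik by -1.37 or lower in aging against young at the brightest probe. Other probes of Taok3 and Tnik read the opposite, -0.75 and at least 0.32. In suppressed aging against aging Taok3 differed by -1.06 and Mink1 by -1.69 ± 0.22, and Map4k4 was 1.22 ± 0.20 above young. Among scaffolds and polarity genes that act on LATS or on angiomotins, Limd1 differed by -1.56 ± 0.20 (0.19 at its second probe) and Scrib by 1.32 ± 0.21 with age, and Pard6b by 1.45 ± 0.20 and Amotl1 by at least 1.29 with suppression. Slmap and Strn4 belong to a phosphatase complex that acts on MST kinases. Slmap differed by -1.59 ± 0.20 with age and 1.42 ± 0.20 with suppression, and Strn4 by 0.31 and 2.06 ± 0.20, where its second probe read -0.30 and 2.53. Of 42 of these 87 genes with several probes compared, the probes shared a direction in 17 with age and in 23 with suppression.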

How the data were processed

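Single-colour (Cy3) Agilent arrays were measured for 3 pools of mouse blastocysts, young, aging and suppressed aging, with 1 pool of 30 blastocysts and 1 array each. Spot intensities were deposited by the authors as their scanner software, Agilent Feature Extraction 12.0.3.1, wrote them (linear, background-subtracted and detrended, with no scaling between arrays), together with a second table that was checked to be the same intensity times 1 factor per array. The labels name a labelling kit for low input and the study's methods a global PCR amplification, so the amplification of this RNA is uncertain, and its effect on the levels was not tested.

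Control spots and spots called outliers by the scanner software were left out, the spots of a probe were averaged as log2 values, and each array's 75th percentile was then taken off. Probes were named by their RefSeq transcript in a gene table of GRCm38.p6, while the array design names an older build, so coordinates come from that table and none from the array. A probe was well above background if at least 0.5 of its spots were. If only 1 of 2 arrays was, the other was set to its detection limit, or to its own reading if higher, and the difference is a bound. The probe with the highest mean level stood for a gene in counts past 2-fold. The members and the gene lists were chosen with earlier results of these data known. Named were all 10 members, lineage and YAP target genes, and the other listed genes past 2-fold at their brightest probe.

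Alternatives were normexp (limma 3.58.1 in R 4.3.3, offset 50), quantiles made equal between arrays, a centre at the median of probes detected on every array or at the mean of 15 housekeeping genes, the authors' table, outlier spots kept, gene means over probes, only probes detected on both arrays, no filter on dim probes and a 5-fold limit. The procedure was tested on simulated data. Python 3.11.15, NumPy 2.4.6, pandas 2.3.3 and Matplotlib 3.10.9 were used. The number of arrays limits the precision.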

Additional observations from a re-analysis of the deposited data

How the results depend on the processing

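The 14 differences of member probes past 2-fold kept their sign under each of the 7 or 8 alternatives that gave them a value (11 of them did with probes above background on both arrays), and those of the 2 brighter Lats2 probes also stayed past 2-fold. Centring on housekeeping genes took 1 of the 14 below 2-fold and normexp 10. Normexp adds an offset, and over all genes it lowered the count past 2-fold from 3079 to 847 with age, from 2741 to 734 with suppression and from 2599 to 721 between suppressed aging and young. In the same 3 comparisons it left 0, 1 and 1 of the 10 genes and 8, 6 and 5 of the other pathway genes past 2-fold. Its median of the 10 genes with age was 0.067 in place of -0.03, and the probes of a gene shared a direction in 0, 1 and 1 genes. With the 5-fold limit, 0, 0 and 0 of the 10 genes and 1, 2 and 2 of the other pathway genes passed. Gene means over probes gave 2 of the 10 genes past 2-fold with age and 1 with suppression, the latter with a median of 0.17 in place of -0.13, and a median of -0.059 in place of 0.11 between suppressed aging and young. Without a filter on dim probes the genes whose probes shared a direction were 0, 0 and 1. Quantile normalization gave 0 of them with suppression and 1 between suppressed aging and young, and housekeeping centring and the series matrix values each gave 1 in the latter. The cause of these shifts was not tested. No paired analysis was possible because each group has 1 array. Signals near background limit the readings of Lats1 and of the dimmest probes of Lats2 and Amot, and among the other genes that of Vgll4 after suppression.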
